A study of Glycine max with 48 samples.

Results

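The stigma of the soybean flower was compared between plants kept in heat and plants kept at control temperature, with full water on both sides. The comparison took the 3 heat and the 3 control libraries of the stigma by their labels, which is 6 of the 48 libraries of the series. Glycine max cultivar Magellan was grown for 16 to 18 days under 12 hours of light until the first flower opened, and plants were then divided at random among 4 treatments. In heat the days were at 38 °C and the nights at 28 °C, and in control the days were at 28 °C and the nights at 24 °C. Both received 100% of the water available for transpiration. The other stigma groups served as a second test of heat: plants under combined stress had the heat regime with 30% of that water, and plants under water deficit had the control temperatures with 30%. Each library pooled one organ from 10 to 15 flowers of 8 to 10 plants, and 3 such pools made a group. The 4 treatments were run in 4 growth chambers of 1 room, and the labels do not assign them. Chamber and temperature cannot be told apart where a chamber served a single treatment.

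The stigma is the part of the pistil on which pollen lands, takes up water and germinates, before the pollen tube grows through the style to the ovary. Flowering is among the stages of a crop most sensitive to heat, and both the pollen and the tissues that receive it can be impaired. Plant cells exposed to heat are known to build up transcripts of heat shock transcription factors and of chaperones, proteins that keep other proteins folded. The files list identifiers without gene names, and 0 of 57147 identifiers matched the gene table at hand, so roles cannot be attached to the genes below and no defining stigma gene could be checked by name.

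Expression was measured by RNA sequencing and deposited as FPKM, fragment counts scaled to gene length and to the fragments of the library. Only the relative depth of the libraries could be estimated. Control replicate 1 was the deepest of the 12 stigma libraries at 1.45 times the lowest, while the other controls stood at 1.02 and 1.05 and the heat libraries at 1.05, 1.09 and 1.07. Between 30514 and 31587 genes reached 1 FPKM in each stigma library. The log2(FPKM + 1) values of heat libraries correlated with each other at 0.939 to 0.951 and with controls at 0.895 to 0.932, and controls correlated with each other at 0.946 to 0.951. An FPKM is a share of a library, and the tissue is measured in bulk, so fewer cells of a type and less RNA per cell cannot be told apart.

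Heat changed many stigma genes, mostly by small amounts and in both directions about equally. Of 33609 genes tested, 2274 were higher in heat (6.77%) and 2408 lower (7.16%), together 13.9%, at an adjusted p under 0.05 in limma. The median log2 fold change of all genes was 0.01, and its quartiles were -0.25 and 0.25. The log2 fold change stands throughout for the heat mean minus the control mean of log2(FPKM + 1), which understates the change of genes with low values. Control replicate 1 also held the most anther transcripts, as described below. Without it the counts were 1170 higher and 1102 lower. Of the 2274 and 2408 genes, 1105 and 1071 were still called, all kept their sign, and 0 were called in the opposite direction. The refit used all the other libraries again, so the kept signs are no added support. The heat and control values did not overlap in 35.2% of all genes tested, with heat above in 18.3% and below in 16.9%.

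Changes of 1 to 2 log2 units were more often falls, and the few beyond 3 log2 units were mostly rises. Of the called genes, 692, or 14.8%, moved by at least 1 log2 unit, 287 of them higher in heat and 405 lower. Between 1 and 2 log2 units, 231 genes were higher and 385 lower. Between 2 and 3 log2 units the counts were 20 and 17, and beyond 3 log2 units 36 genes were higher and 3 lower.

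**Figure D1:**
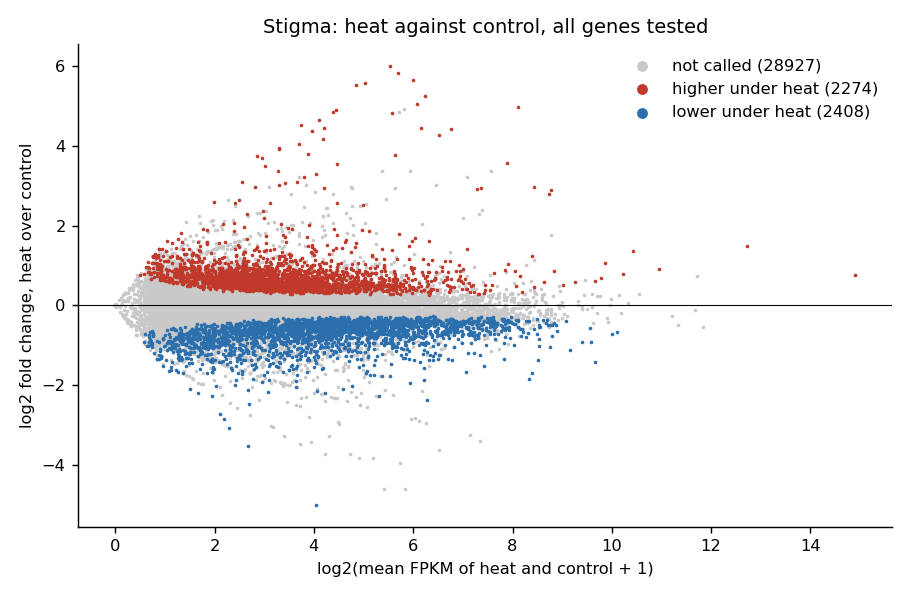
Log2 fold change of heat over control against log2(mean FPKM of heat and control + 1), with 1 point for each of the 33609 genes tested in the stigma. Red points are the 2274 genes called higher in heat and blue points the 2408 called lower; of the called points, those beyond 3 log2 units are mostly red.

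The 36 genes raised by more than 3 log2 units were mostly at very low levels in control. Their means ran over 9.71 to 538 FPKM in heat stigmas, against 0 to 31.97 FPKM in control stigmas. In control, 22 of them averaged under 1 FPKM and 6 were listed at 0 in all 3 libraries. The fitted size of genes at such low levels depends on the pseudocount. Among the anther marker genes described below, which were 1035 of the 33609 genes tested, were 0 of the 36.

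Summed over these 36 genes, the heat libraries held 1649, 5188 and 1949 FPKM, against 74.6, 87.0 and 115 FPKM in the control libraries. The choice of genes fixes the separation of these sums, and heat replicate 2 stood well above the other heat libraries. It gave the highest value for 33 of the 36 genes, heat replicate 1 for the other 3. The genes raised by 1 to 3 log2 units were spread more evenly, with 83 of 251 highest in heat replicate 1, 103 in replicate 2 and 65 in replicate 3. Heat replicate 2 had a relative depth of 1.09 and the highest anther marker share of the heat libraries, 1.92%, and the part of either in the stronger signal was not tested. Without heat replicate 2, 30 of the 36 genes were still called, and without control replicate 1, 31 were.

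GLYMA_07G200700 had the largest rise among the genes that met the naming rule, which asks for heat and control libraries that do not overlap, so their separation in a gene named by it is no result. It reached 39.3, 172 and 58.9 FPKM in the heat stigmas, against 0.0630, 0.271 and 0.172 FPKM in the control stigmas. Replicate 2 was the highest of the heat libraries. The log2 fold change was 6.00 (SE of 0.70, limma adjusted p = 0.00212), and it was 5.40 without heat replicate 2 and 5.94 without control replicate 1. It was 8.18 with a pseudocount of 0.1 and 3.94 with a pseudocount of 5.

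GLYMA_08G068800 had the same order of heat libraries. It stood at 44.2, 194 and 64.3 FPKM in heat and at 0.320, 0.550 and 0.570 FPKM in control. All control libraries stayed below 1 FPKM, and replicate 2 was again the highest of the heat group. Its log2 fold change was 5.82 (SE of 0.65, limma adjusted p = 0.00183), or 5.20 without heat replicate 2.

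Few genes were switched fully on or off by the levels used here. In 14 genes all controls were at or below 0.1 FPKM and all heat libraries at 1 FPKM or more, and 11 of these were called higher. Of the 14, only 6 were at 1 FPKM or more in the 3 stigma libraries of combined stress. In 8 genes, all called lower, the heat libraries were at or below 0.1 FPKM and the controls at 1 FPKM or more. Only 3 of these 8 were at or below 0.1 FPKM in the 3 stigma libraries of combined stress. Anther markers were 2 of these 8, against 1035 of the 33609 genes tested. An exact 0 in these files need not mean absence, since 201 of 19339 genes with a mean of at least 5 FPKM were listed at 0 in at least 1 of the 6 libraries.

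The 2 named genes with the largest fall were both listed at 0 in the 3 heat stigmas, so no fold is given. GLYMA_01G121800, an anther marker, was at 34.7, 28.3 and 30.3 FPKM in the control stigmas (limma adjusted p = 2.11e-05). It was also listed at 0 in the 3 stigma libraries of combined stress, while the water-deficit stigmas held 63.6, 86.3 and 188 FPKM.

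GLYMA_08G289300 was listed at 0 in all heat stigmas and at 14.0, 7.28 and 10.98 FPKM in the control stigmas (limma adjusted p = 0.0317). Its other stigma values did not follow temperature, with 8.17, 13.6 and 5.28 FPKM under combined stress, against 16.8, 6.48 and 0 FPKM under water deficit. Leaving out any 1 of the 6 libraries ended its call, and the adjusted p ran from 0.00182 to 0.0959 over 16 alternatives.

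Of the 20 genes lowered by more than 2 log2 units, 5 were listed at 0 in all heat libraries. Anther markers were 6 of the 20, against 1035 of the 33609 genes tested. Without control replicate 1, 16 of the 20 were still called lower, and without heat replicate 2, 17 were.

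**Figure D2:**
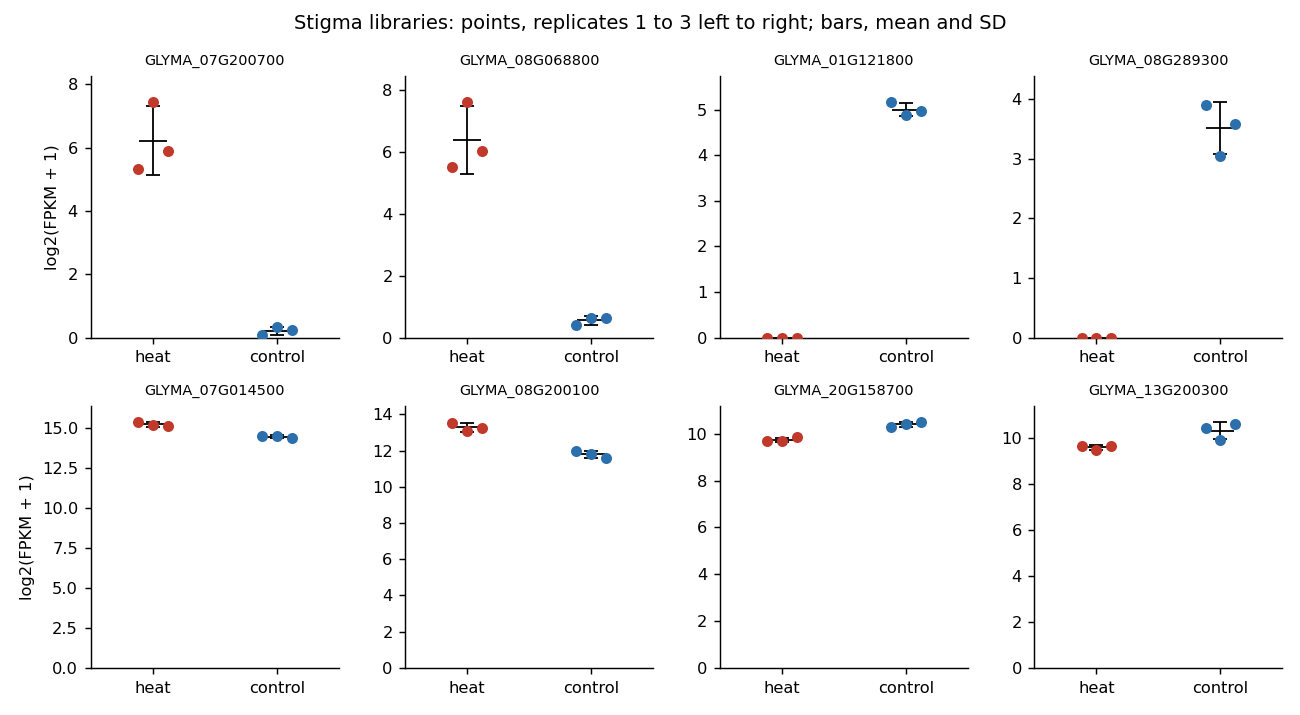
FPKM on a log2(FPKM + 1) scale in the 3 heat and the 3 control stigma libraries, 1 panel per gene, with points for replicates 1 to 3 from left to right and bars for the mean and SD. The upper row holds the 2 genes with the largest rise and the 2 with the largest fall, and the lower row 4 of the most abundant genes; in the first 2 panels replicate 2 is the highest heat library.

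Heat also raised the 2 most abundant transcripts of the stigma. GLYMA_07G014500 was at 43237, 37720 and 35315 FPKM in the heat stigmas, against 23618, 22914 and 21662 FPKM in the control stigmas. All heat libraries were above all controls, and within each group the values lay close together. The log2 fold change was 0.77 (SE of 0.10, limma adjusted p = 0.00133). This one gene made up 6.23% ± 0.668 of summed FPKM in heat and 3.56% ± 0.0690 in control (SD, n = 3 each; exact two-sided permutation p = 0.1). With 3 libraries against 3, 0.1 is the smallest p that this test allows, and adjusted over the 6 shares tested it was 0.2.

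GLYMA_08G200100, the second most abundant, held 11957, 8536 and 9633 FPKM in heat, against 4025, 3585 and 3118 FPKM in control. The lowest heat value exceeded the highest control value. Its log2 fold change was 1.48 (SE of 0.14, limma adjusted p = 0.00047). The 50 most abundant genes of each library together held 16.6% ± 0.827 of summed FPKM in heat and 12.4% ± 0.253 in control (SD, n = 3 each; exact two-sided permutation p = 0.1, adjusted p = 0.2).

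Of the 20 genes with the highest mean over the 6 libraries, 5 were called higher and 2 lower, and the rest were not called. The 2 lowered ones were GLYMA_20G158700 and GLYMA_13G200300. GLYMA_20G158700 stood at 819, 831 and 922 FPKM in heat and at 1254, 1366 and 1453 FPKM in control, groups that did not overlap (log2 fold change -0.66 with an SE of 0.13, limma adjusted p = 0.00711). GLYMA_13G200300 had 796, 705 and 787 FPKM in heat, against 1379, 945 and 1541 FPKM in control (log2 fold change -0.73 with an SE of 0.22, limma adjusted p = 0.0452). Control replicate 2 came nearest to its heat values, and the call was lost in 8 of 16 alternatives, with adjusted p of 0.023 to 0.131.

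Calls were grouped by expression level, taken from the water-deficit stigmas, which lie outside the contrast but had the control temperatures. A gene that heat lowers can thus be sorted into a higher class, and one that heat raises into a lower class. The part of this sorting in the counts was not tested. Above 100 FPKM, 50 of 998 genes were higher in heat (5.01%) and 285 lower (28.6%), with a median log2 fold change of -0.28. Between 20 and 100 FPKM, 346 of 5074 were higher (6.82%) and 870 lower (17.1%), with a median of -0.16. Genes abundant in the water-deficit stigmas were thus lowered more often than raised, although the 2 most abundant of all were higher.

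The balance was the other way among genes weakly expressed in the water-deficit stigmas. Between 1 and 5 FPKM, 710 of 12048 genes were higher (5.89%) and 405 lower (3.36%), and between 5 and 20 FPKM 1025 of 13352 were higher (7.68%) and 804 lower (6.02%). Under 1 FPKM, 143 of 2137 were higher (6.69%) and 44 lower (2.06%), but these genes were tested because another stigma group reached 1 FPKM. Without control replicate 1 the counts above 100 FPKM were 31 higher and 142 lower and those between 1 and 5 FPKM 337 higher and 134 lower.

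**Figure D3:**
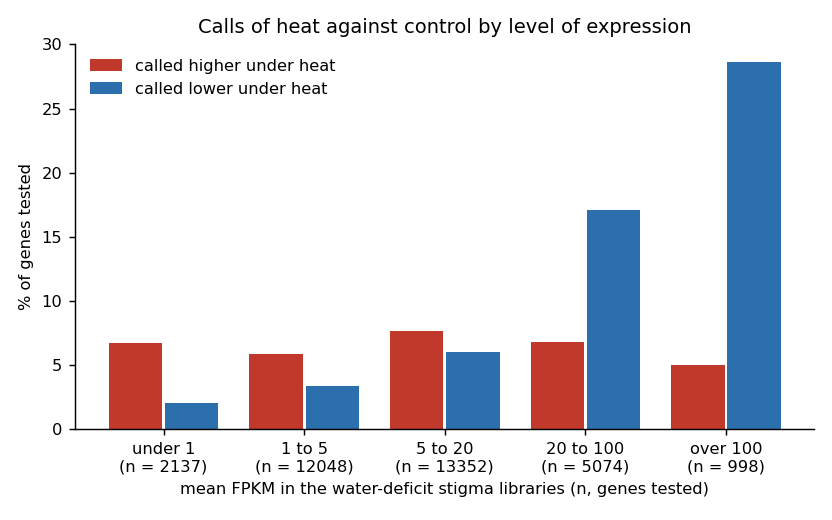
Percentage of tested genes called higher (red) or lower (blue) in heat stigmas against control stigmas, in 5 classes of mean FPKM in the water-deficit stigmas. The share called lower is 2.06% in the lowest class and 28.6% in the highest, and the share called higher stays between 5.01% and 7.68%.

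Genes with neighbouring identifiers, which are numbered along the chromosome, were compared in 21730 pairs. The log2 fold changes had the same sign in 51.8% of the pairs. In 506 pairs both genes were called, and 306 of these (60.5%) changed in the same direction, 128 higher in heat and 178 lower. Near-identical copies often lie side by side, and the labels do not say how reads that fit several copies were counted, so values of single neighbours are uncertain.

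Short runs of identifiers held several genes that changed by at least 1 log2 unit in the same direction. On chromosome 7, 5 genes within a span of 8 identifiers, GLYMA_07G200700 among them, were raised by 2.80 to 6.00 log2 units. Their FPKM summed to 662, 1973 and 564 in heat, against 83.2, 67.3 and 145 in control. The genes were picked for their rise in these libraries, heat replicate 2 had the highest sum, and 4 of the 5 genes were called without control replicate 1.

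On chromosome 13, 5 genes within a span of 9 identifiers were raised by 2.56 to 4.99 log2 units. Their sums were 835, 2274 and 911 FPKM in heat, against 69.99, 71.4 and 145 FPKM in control. The order of libraries was that of the 36 strongly raised genes, which include those of the run raised by more than 3 log2 units. Of the 5 genes, 3 were called without control replicate 1. A run on chromosome 14 went down, with 5 genes within 8 identifiers lowered by log2 fold changes of -2.47 to -1.10. It summed to 452, 330 and 526 FPKM in heat and to 1157, 1886 and 688 FPKM in control, where replicate 3 came nearest to the heat values. Without control replicate 1, 2 of these 5 genes were still called.

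Transcripts of the anther, the pollen-bearing organ that surrounds the stigma, were traced with 1039 marker genes. A marker had at least 20 FPKM in each control anther library and a mean at least 20 times that of control ovary and of control sepal. The markers held 0.704%, 1.92% and 1.49% of summed FPKM in the heat stigmas, against 4.17%, 2.03% and 1.57% in the control stigmas, and 52.9% ± 3.37 in control anthers (SD, n = 3). The stigma groups overlapped, with control replicate 1 the highest and heat replicate 1 the lowest. The means were 1.37% ± 0.616 in heat and 2.59% ± 1.39 in control, a difference of -1.22 percentage points (SD, n = 3 each; exact two-sided permutation p = 0.2, adjusted p = 0.24). It was -0.43 without control replicate 1.

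Of the 1035 anther markers tested in the stigma, 0 were higher in heat and 108 lower (10.4%), against 6.77% higher and 7.16% lower of all genes, and their median log2 fold change was -0.79, against 0.01. Without control replicate 1, 0 were higher and 25 lower (2.42%), against 3.28% of all genes lower, and the median was -0.44, against 0.02. Without heat replicate 1, which held the smallest anther share, 22 were called, and without control replicate 3, 192 were. The 108 genes made up 4.49% of all genes called lower in the stigma, where the markers were 1035 of the 33609 genes tested. The part of anther material in these genes was not tested.

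**Figure D4:**
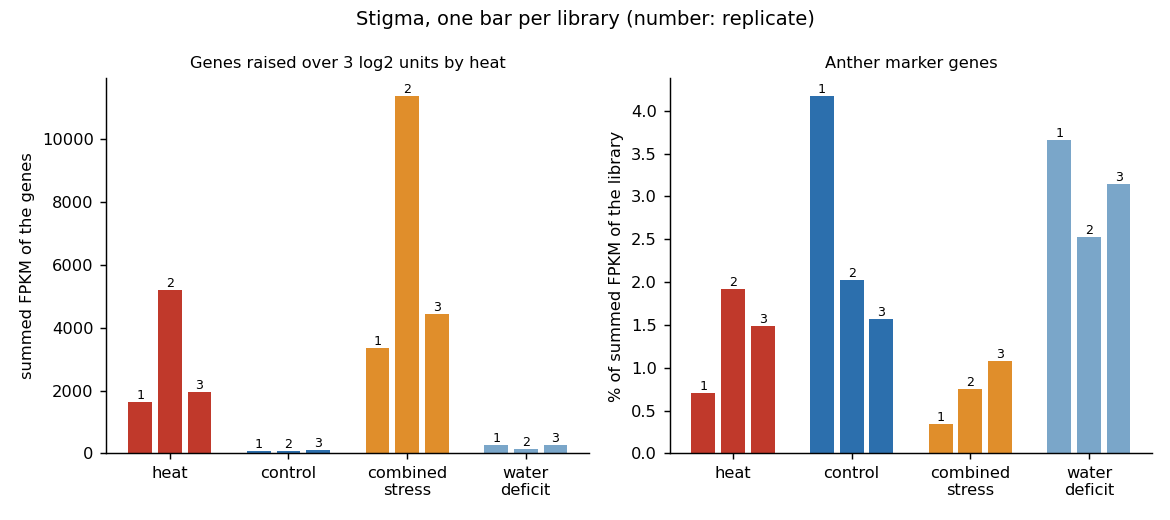
Bars for each stigma library, with the replicate number above: summed FPKM of the 36 genes raised by more than 3 log2 units (left) and percentage of summed FPKM from anther markers (right). Replicate 2 is the highest heat library in the left panel at 5188 FPKM, and control replicate 1 the highest of all in the right panel at 4.17%.

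Sepal and ovary markers were chosen by the same rule from their own organs. The 200 sepal markers held 0.257%, 0.210% and 0.218% of summed FPKM in heat stigmas, against 0.318%, 0.279% and 0.335% in control stigmas, without overlap (exact two-sided permutation p = 0.1, adjusted p = 0.2, n = 3 each). Of the 143 sepal markers tested, 16 were higher and 16 lower (11.2% each), against 6.77% and 7.16% of all genes, with a median log2 fold change of -0.13. Without control replicate 1 the counts were 12 and 10 (8.39% and 6.99%), against 3.48% and 3.28% of all genes. The 40 ovary markers held 0.277% ± 0.00696 in heat and 0.271% ± 0.0231 in control (SD, n = 3 each; exact two-sided permutation p = 0.8), and 2 were higher (5%) and 9 lower (22.5%), with a median of 0.13, against 6.77% and 7.16% of all genes. These counts were 1 and 8 (2.5% and 20%) without control replicate 1. The ovary markers were chosen at 20 FPKM or more in control ovaries. With all libraries, 17.1% of all genes at 20 to 100 FPKM in the water-deficit stigmas were lower, and 28.6% of those above 100 FPKM. The part of expression level in the ovary marker counts was not tested.

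Genes that mark the stigma itself were taken from the water-deficit libraries, so that the heat and control libraries had no part in the choice. Water-deficit plants had the control temperatures, however, so the choice can favour genes that fall in heat. The part of this in the counts was not tested. In these, 18 genes reached at least 20 FPKM in each stigma library and at least 5 times the mean of every other organ. In heat 0 of the 18 were higher and 7 lower (38.9%), with a median log2 fold change of -0.72. Over all genes 6.77% were higher and 7.16% lower with a median of 0.01, but the 18 were chosen at 20 FPKM or more, where 17.1% (20 to 100 FPKM) and 28.6% (above 100 FPKM) of all genes were lower. With control replicate 1 left out, 5 were lower and the median was -0.65. Their share of summed FPKM was 0.263%, 0.256% and 0.316% in heat stigmas, against 0.323%, 0.311% and 0.345% in control stigmas. Heat replicate 3 overlapped the controls and the other heat libraries lay below them (exact two-sided permutation p = 0.2, adjusted p = 0.24, n = 3 each). At low water, in combined stress against water deficit, 1 of the 18 was higher and 4 were lower, against 5.44% and 11.2% of all genes, and the median was -0.09, against -0.04. Their share there was 0.384%, 0.367% and 0.402% in combined-stress stigmas, against 0.434%, 0.230% and 0.376% in water-deficit stigmas, which overlapped and which had also chosen the genes.

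The effect of heat was measured again at low water, in the combined-stress libraries against the water-deficit libraries, which share no library with heat and control. There 1830 genes were higher (5.44%) and 3770 lower (11.2%), together 16.7%. The excess of falls depended on scaling and on the anther markers. With the libraries rescaled by median ratios, 2439 were higher and 3431 lower. With the anther markers left out and the libraries rescaled, 1812 were higher and 2758 lower. Without combined-stress replicate 2 the total of 5600 was 3092, and without water-deficit replicate 3 it was 3388. Of the 2274 genes higher in heat at full water, 1026 were also higher at low water, which is 45.1% of the full-water list and 56.1% of the low-water list, and 3 were lower. Of the 2408 lower genes, 1523 were also lower at low water, 63.2% of the full-water list and 40.4% of the low-water list, and 1 was higher. Both tests took their estimate of the spread from the same 12 libraries.

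The sign of the change was also compared. The low-water log2 fold change was positive for 2155 of the 2274 higher genes (94.8%), against 45.1% of all genes, and negative for 2357 of the 2408 lower genes (97.9%), against 54.5% of all genes. Median changes were 0.62 at full water, where the lists were drawn, and 0.41 at low water for the higher genes, and -0.65 and -0.55 for the lower genes. Across all 33609 genes, which are not independent replicates, the log2 fold changes of both tests correlated at 0.638 (Pearson) and 0.669 (Spearman).

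The anther markers were lower at low water too, with 1 called higher and 778 lower of 1035, against 5.44% and 11.2% of all genes, and a median of -1.54. Their share there was 0.344%, 0.755% and 1.08% in combined-stress stigmas, against 3.66%, 2.53% and 3.15% in water-deficit stigmas, which did not overlap. Marker genes, 1035 of the 33609 tested, were thus 20.6% of the genes lower at low water, as against 4.49% at full water.

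Of the 36 strongly raised genes, 31 were called higher at low water, against 5.44% of all genes tested. They summed to 3367, 11361 and 4432 FPKM under combined stress, against 258, 127 and 279 FPKM under water deficit. Replicate 2 was again the highest library, giving the top value for 32 of the 36 genes, and 28 were called without it. Of the 20 strongly lowered genes, 13 were called lower at low water, against 11.2% of all genes.

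The genes with the largest rise at low water were also raised at full water. GLYMA_10G176400 had 202, 610 and 265 FPKM under combined stress, against 0.229, 0.160 and 0.242 FPKM under water deficit (log2 fold change 8.05 with an SE of 0.41, limma adjusted p = 2.16e-05). At full water it had 37.8, 102 and 50.2 FPKM in heat, against 0.201, 0.115 and 0.386 FPKM in control (log2 fold change 5.58 with an SE of 0.41, limma adjusted p = 0.000255).

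GLYMA_14G063700 held 203, 338 and 261 FPKM under combined stress, against 0.0924, 0.215 and 0.391 FPKM under water deficit (log2 fold change 7.74 with an SE of 0.34, limma adjusted p = 2.3e-06). At full water it held 13.0, 42.6 and 18.5 FPKM in heat and was listed at 0 in the 3 controls (limma adjusted p = 0.000237). The largest falls at low water that met the naming rule were those of GLYMA_01G121800, given above, and of ENSRNA050003713, an identifier outside the GLYMA series. It was at 5.04e-06, 1.2e-06 and 0 FPKM under combined stress, against 18.7, 22.5 and 23.8 FPKM under water deficit (limma adjusted p = 0.00687), and was not called at full water (limma adjusted p = 0.242).

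The heat effects at the 2 water levels were compared gene by gene. The interaction term of limma gave 0 called genes (0%), with 2183 genes at an unadjusted p under 0.05 and a lowest adjusted p of 0.0625. Leaving out single libraries gave 0 to 5 genes. For GLYMA_14G063700 the adjusted p of the interaction was 0.154, and for GLYMA_10G176400 it was 0.575 (difference of log2 fold changes 2.47, SE 0.58).

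**Figure D5:**
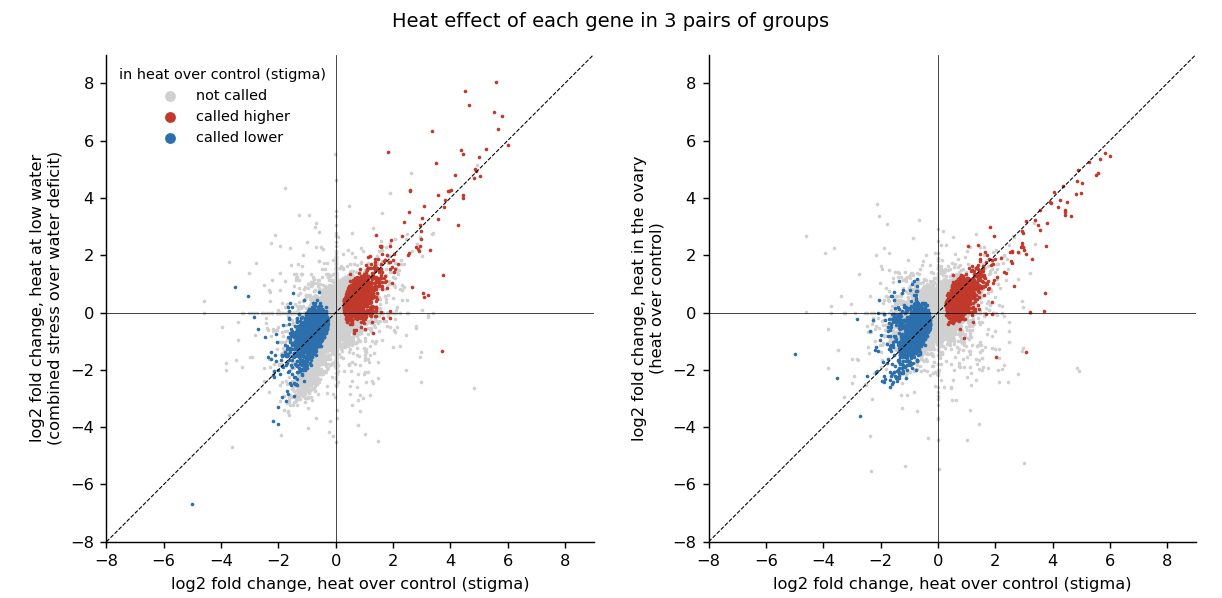
Log2 fold change of each gene under heat at low water in the stigma (left, combined stress over water deficit) and under heat in the ovary (right, heat over control) against that of heat over control in the stigma. Red and blue points are genes called higher and lower in the stigma at full water, most of which lie in the quadrant of the same sign; the dashed line marks equal changes.

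The ovary, the lower part of the same pistil, was set beside the stigma with its own heat and control libraries. The labels do not say whether stigma and ovary libraries came from the same flowers, and the files of both organs were scaled separately, so fold changes were taken within each organ. In the ovary 1998 of 33336 genes were higher in heat (5.99%) and 3612 lower (10.8%). Over the 31778 genes tested in both organs, 994 of the 2250 genes higher in the stigma were higher in the ovary too, which is 44.2% of the stigma list and 51% of the 1949 on the ovary list, and 0 were lower. Of the 2259 genes lower in the stigma, 1469 were lower in the ovary, 65% of the stigma list and 40.9% of the 3590 on the ovary list, and 2 were higher.

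The strongly raised genes of the stigma responded in the ovary as well. Called higher there were 30 of the 36, against 5.99% of all genes tested in the ovary. They summed to 4382, 1542 and 1621 FPKM in heat ovaries, against 210, 136 and 168 FPKM in control ovaries. In the ovary replicate 1 was the highest heat library, with the top value for 31 of the 36 genes, and 24 were called without it. GLYMA_07G200700 had a log2 fold change of 5.47 in the ovary and GLYMA_08G068800 one of 5.57.

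The 2 most abundant genes of the stigma were raised in both organs. GLYMA_07G014500 had 29500, 30756 and 34400 FPKM in heat ovaries, against 15279, 20068 and 15559 FPKM in control ovaries. GLYMA_08G200100 had 7219, 8239 and 8483 FPKM in heat ovaries, against 1702, 2313 and 1898 FPKM in control ovaries. Heat and control did not overlap for either gene, and heat lay wholly above control in 5360 of 33336 genes tested in the ovary. The difference in response between stigma and ovary did not pass the test for either. It was -0.14 (SE 0.16, limma adjusted p = 0.88) for GLYMA_07G014500 and -0.54 (SE 0.21, limma adjusted p = 0.581) for GLYMA_08G200100, in log2 units.

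A test of the stigma response minus the ovary response called 3 of 31778 genes (0.00944%), 1 with a more positive response in the stigma (0.00315%) and 2 with a more negative one (0.00629%), and 2410 genes had an unadjusted p under 0.05. GLYMA_16G156800 was at 12.96, 11.8 and 13.1 FPKM in heat stigmas, against 62.4, 70.8 and 61.8 FPKM in control stigmas (log2 fold change -2.27 with an SE of 0.15, limma adjusted p = 2.63e-05). In the ovary its level was low, at 0.328, 0.451 and 0.912 FPKM in heat and 0.841, 1.10 and 0.665 FPKM in control. The groups were far apart in the stigma and overlapped in the ovary. The difference was -2.01 (SE 0.31, limma adjusted p = 0.0265), and it lost its call in 11 of 19 alternatives. With a pseudocount of 0.1 it was -1.74 (limma adjusted p = 0.455). At these ovary levels log2(FPKM + 1) leaves little room for a fall, so the test cannot tell a different response from a low level.

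GLYMA_14G096600 was raised in heat ovaries but not called in the stigma. It held 21.1, 16.0 and 17.5 FPKM in heat stigmas, against 23.1, 19.1 and 22.8 FPKM in control stigmas, which overlapped (log2 fold change -0.24, limma adjusted p = 0.408). In the ovary it held 10.8, 10.9 and 13.9 FPKM in heat, against 4.37, 3.77 and 3.37 FPKM in control (log2 fold change 1.41, limma adjusted p = 6.96e-05). The difference was -1.65 (SE 0.23, limma adjusted p = 0.014) and lost its call in 4 of 20 alternatives.

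GLYMA_12G109800 was lowered in heat ovaries, and its stigma values leaned the other way. It was at 156, 178 and 193 FPKM in heat stigmas, against 142, 117 and 134 FPKM in control stigmas, groups that did not overlap but did not pass the test (log2 fold change 0.42, limma adjusted p = 0.0634). In the ovary it was at 55.4, 38.6 and 41.6 FPKM in heat and at 79.3, 94.9 and 86.4 FPKM in control (log2 fold change -0.94, limma adjusted p = 0.000792). The difference was 1.36 (SE 0.20, limma adjusted p = 0.014) and lost its call in 7 of 20 alternatives.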

How the data were processed

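RNA of stigmas was sequenced as paired reads in 12 libraries, 3 for each treatment, and 3 further organs were measured likewise. Per the submitters' processing notes, reads were aligned with HISAT2 2.2.1. The authors deposited FPKM, 1 file per organ, and for the genome build, the annotation and the tool behind the FPKM nothing was given in the sources used here. The stigma file lists 57147 identifiers without names, and 0 matched the RefSeq gene table, so the planned gene lists could not be built and no sequence is shown. Absolute depth is unknown, no counting interval is given, and relative depth was read from the steps of low FPKM values.

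From the deposited FPKM, log2(FPKM + 1) was fitted with limma 3.58.1 in R 4.3.3 (with data.table, version 1.17.8) on the 12 stigma libraries, with robust moderation and a trend of the variance with the mean. Tested genes averaged 1 FPKM or more in 1 or more stigma groups. Two-sided p-values were adjusted over all genes tested by the Benjamini-Hochberg method, and genes under 0.05 were called. The difference from the ovary was fitted on the libraries of all 4 treatments of both organs, with genes that passed the filter in each. Its contrast used the heat and control groups. Shares of summed FPKM were compared with exact permutation tests. The procedure was tested on simulated data. Figures were drawn with matplotlib 3.10.9.

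A named gene was called, averaged at least 5 FPKM in its higher group, had groups that did not overlap and kept its sign without control replicate 1. Without names, the 2 largest rises and the 2 largest falls were given. For the low-water comparison the rule was applied after the values were seen, for the difference between organs all called genes were named, and the 4 abundant genes were chosen after their values were seen. The sets of marker genes were defined from the files for want of names. The comparison, its members and all lists were chosen with earlier results of these data known. Alternatives covered pseudocount, filter, scaling, moderation, the libraries fitted, a replicate block, anther markers left out and single libraries left out.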

Additional observations from a re-analysis of the deposited data

Results flagged for a closer look

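The response to heat differed between stigma and ovary by a test of the difference itself for 3 genes, given as log2 fold change in the stigma minus that in the ovary. GLYMA_16G156800 differed by -2.01, GLYMA_14G096600 by -1.65 and GLYMA_12G109800 by 1.36 (limma adjusted p = 0.0265, 0.014 and 0.014). For GLYMA_16G156800 the low ovary level leaves little room for a fall, so a different response and a low level cannot be told apart. Its limma adjusted p was 0.455 with a pseudocount of 0.1. All 3 heat stigmas were below all 3 control stigmas for GLYMA_16G156800, and for the other 2 genes all 3 heat ovaries lay apart from all 3 control ovaries. The same libraries chose these genes, so the gaps are no added support. In the stigma, heat and control did not overlap in 35.2% of all genes tested. In the ovary, of 33336 genes tested, heat lay wholly above control in 5360 and wholly below it in 6733. Without stigma heat replicate 2 or 3, and without ovary heat replicate 3 or ovary control replicate 3, 0 genes were called.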

How the results depend on the processing

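The comparison of heat with control called 4682 genes, and changes of pseudocount, filter, scaling, moderation or the libraries fitted gave 3648 to 5013. Leaving out 1 library gave 2272 (without control replicate 1) to 3528 (without control replicate 3). The values between were 2325, 2951 and 2754 without heat replicate 1, 2 or 3 and 2752 without control replicate 2. At low water the total of 5600 became 3092 to 4883 with single libraries left out, the lowest without combined-stress replicate 2, and 3388 without water-deficit replicate 3. Over the other alternatives it ran from 4570 (anther markers left out) to 5870 (rescaling by median ratios). The interaction, with 0 called, gave 1 with a pseudocount of 0.1, 1 with a pseudocount of 5, 1 with a filter at 5 FPKM and 1 without the anther markers, and 0 to 5 with single libraries left out, the highest without water-deficit replicate 2. The difference between stigma and ovary, with 3 called, gave 13 with no filter and 0 to 6 with single libraries left out, the highest without stigma control replicate 3. The difference in anther marker share, -1.22 percentage points, was -1.73 to -0.43 with single libraries left out and -1.35 with the 1294 markers of an 8-fold rule. With the 91 markers of a 100-fold rule it was -0.04, on a share of 0.0424% in heat and 0.0867% in control. The log2 fold changes of named genes and the difference in anther marker share kept their sign in the alternatives run. The balance of heat against control, 2274 higher and 2408 lower, did not. More genes were higher without the anther markers (2545 and 2228) and without trend or robust moderation (2140 and 2106). The same held without heat replicate 2 (1561 and 1390) and without control replicate 1 (1170 and 1102). In all other alternatives more genes were lower. Causes were not tested.

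Replicate numbers were checked as pairs: deviations of same-numbered heat and control libraries from their group means correlated at -0.11, -0.02 and -0.09, and those of combined stress and water deficit at -0.10, -0.01 and -0.02, so the numbers were not taken to pair the groups compared. Between heat and combined stress, which enter the interaction with opposite signs, they correlated at 0.11, 0.12 and 0.08. There 6 of 6 libraries correlated best with their own number, a hint from the data and not from the labels. If these numbers pair libraries, the low-water test and its highest replicate are not fully independent of heat against control. With a replicate block the counts were 3883 for heat against control, 4847 at low water, 0 for the interaction and 1 for the difference between organs, and 597 with the block on the 6 libraries alone. Absolute depth is unknown, which limits what can be said of low FPKM values.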

Other observations

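Genes that heat raised or lowered were spread over all 20 chromosomes named in the identifiers. The share of tested genes called higher in heat stigmas ran from 4.77% on chromosome 5 to 8.19% on chromosome 17, and the share called lower from 5.77% on chromosome 4 to 8.71% on chromosome 11. Identifiers beginning with ENSRNA were rarely called, with 2 of 355 higher in heat (0.563%) and 1 lower (0.282%), against 6.83% and 7.24% of those beginning with GLYMA.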
